A study of Mus musculus with 6 samples.

Results

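The genes described here are 10 regulators of the palatal shelves, the paired outgrowths that meet and fuse to form the roof of the mouth: Osr1, Osr2, Pax9, Shox2, Meox1, Meox2, Mn1, Barx1, Sim2 and Hic1. They were chosen by name, as genes of front-back and side-to-side patterning of the shelves, and all 10 were found among the 49492 gene rows of the table. This choice, and that of the gene lists below, was made with earlier results of these data known. RNA was sequenced from soft palates of E14.5 mouse embryos, in 3 libraries labelled as wild-type controls and 3 labelled Dlx5-/-. The tissue was the posterior part of the palate. Dlx5 encodes a homeodomain protein that patterns the pharyngeal arches, and the series concerns signalling between cranial neural crest and myoblasts. The labels give neither the strain nor the design of the Dlx5 allele, and they do not say whether the libraries came from separate embryos, so the p-values measure the spread between these libraries, which may be technical.

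As background, the shelves grow from neural crest mesenchyme covered by epithelium, and the front and back of each shelf use different transcription factors. Shox2 acts in the front, while Barx1, Meox2 and Mn1 are known from the back. Osr1 and Osr2 are zinc finger paralogs graded across the shelf, and Pax9, a paired box factor, acts along its length and in pharyngeal and tooth tissue. Loss of Osr2, Pax9, Shox2, Mn1 or Sim2 leads to cleft palate in mice, and Meox2 loss to shelves that part again after they meet.

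The libraries held between 6891798 and 11922442 estimated counts, and the members between 59 and 2066 per library. The 6 most counted rows of a library took from 13.95% of its counts (knockout 3) to 28.97% (knockout 2). Rn18s-rs5 alone took 14.76% of all counts. All 10 members passed the filter of a mean of at least 1 CPM, that is counts scaled to a common library size. Levels below are CPM with TMM factors, which adjust for the makeup of each library. Dlx5 served as the check of the labels: controls held 19.3 ± 5.88 CPM of it and knockouts 1.25 ± 0.402 CPM (SD, n = 3 each), and all 6 libraries matched their labels. The tissue held the markers of palatal mesenchyme, epithelium, muscle, nerve, bone and cartilage, except that the bone gene Bglap was listed at 0 in all 6 libraries. Knockout replicate 3 stood apart. Its mean correlation with the other libraries was 0.959, against 0.970 to 0.976 for the others, and 6 brain markers summed to 190 CPM there, against 4.02 to 13.1 CPM elsewhere. Estimates of members that it moved by more than 1.5 times are given with and without it. Estimates of single genes outside the 10 members are given only with it. In these bulk samples, fewer cells of a type and less RNA per cell cannot be told apart.

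None of the 10 members passed the test between knockout and control (edgeR quasi-likelihood, Benjamini-Hochberg adjusted over 16218 genes, threshold 0.05), where 0.00617% of all genes did. That share was 1 gene, Dlx5 itself (adjusted p = 0.0205, edgeR). At an unadjusted p under 0.05 there were 3, against 12.8% of all genes: Pax9, which was lower in the knockout, and Osr1 and Hic1, which were higher. These 3 were also the members whose groups did not overlap, against 19.2% of all genes. Of the 10 estimates, 5 were above 0 and 5 below, where 47.5% of all genes were below, with a median log2 fold change of -0.04 beside 0.01 for all genes. DESeq2 called Pax9 and Hic1, while limma-trend called 0 members. Of the 13988 genes to which DESeq2 gave an adjusted p, it called 0.858% higher and 2.76% lower. Of all 16218 genes, limma-trend called 0.0555% higher and 0.543% lower.

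Promoter windows are shown for Pax9 and Hic1, the members with the lowest p in each direction, and for Shox2. A core sequence was looked for, since Dlx5 is a homeodomain protein and homeodomains bind short AT-rich cores. The windows hold the 250 bases before the RefSeq start on GRCm38.p6, and capitals mark the core TAATT or its reverse complement AATTA, which can overlap each other. RefSeq windows were matched for 5 of the 10 members.
Pax9, chr12:56695221-56695470, plus strand: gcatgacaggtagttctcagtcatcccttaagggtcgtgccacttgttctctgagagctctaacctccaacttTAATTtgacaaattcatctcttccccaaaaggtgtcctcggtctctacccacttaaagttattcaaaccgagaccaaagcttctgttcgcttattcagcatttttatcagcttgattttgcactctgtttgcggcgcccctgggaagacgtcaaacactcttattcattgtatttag
Shox2, chr3:66981772-66982021, minus strand: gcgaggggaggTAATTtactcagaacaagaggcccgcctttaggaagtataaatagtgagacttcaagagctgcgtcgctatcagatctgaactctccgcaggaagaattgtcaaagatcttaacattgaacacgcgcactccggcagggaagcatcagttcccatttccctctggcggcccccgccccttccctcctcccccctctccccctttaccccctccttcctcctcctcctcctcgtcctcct
Hic1, chr11:75170256-75170505, minus strand: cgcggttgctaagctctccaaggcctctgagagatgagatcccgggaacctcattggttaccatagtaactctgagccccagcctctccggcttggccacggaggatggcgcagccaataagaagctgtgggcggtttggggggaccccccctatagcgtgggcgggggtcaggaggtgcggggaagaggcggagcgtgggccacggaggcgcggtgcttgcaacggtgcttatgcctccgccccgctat
The core was found once in the window of Pax9, 177 bases before the start, and once in that of Shox2, 239 bases before it. It was not found in the windows of Hic1, Meox2 or Barx1, and the windows of Meox2 and Barx1 are not shown. Both members whose windows held the core are therefore among those shown. Of all 32851 windows of this length, 25.0% held it on either strand, so its presence is common and is a description only. The windows differed in composition. That of Pax9 was 43.6% G or C, that of Shox2 55.6% and the Hic1 window shown 64.4%, against a median of 52.4% over all windows. The RefSeq start of Pax9 used here lies 3704 bases inside the GENCODE M21 gene model, and the Hic1 start shown lies 736 bases outside its own. Another Hic1 window, not shown, was 77.2% G or C, and its start lies 1367 bases inside the Hic1 model.

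Pax9 was lower in every knockout library than in any control library. It lies on chromosome 12 from 56691767 to 56712822 (GRCm38, plus strand). In controls 1, 2 and 3 it measured 33.0, 39.5 and 50.2 CPM. In knockouts 1, 2 and 3 it measured 28.2, 23.8 and 24.8 CPM. The knockout libraries lay within a narrow band, with a coefficient of variation of 9.03%, while the controls varied by 21.1%. The knockout level was 0.627 times the control level (95% confidence interval 0.490 to 0.802; log2 fold change -0.67, SE 0.16), with an unadjusted p of 0.00228 and an adjusted p of 0.114 (edgeR). Estimates with 1 library left out ran from -0.81 to -0.51 on the log2 scale, all below 0, with edgeR adjusted p from 0.0987 to 0.350. The call was made by DESeq2 (adjusted p = 0.0109) and by edgeR without a filter on low counts (adjusted p = 0.00460). Without that filter 29870 genes were tested, and 1.46% of them were called lower.

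Control 3, which had the most Pax9, also had the highest summed level of 6 epithelial markers, at 272 CPM against 172 and 182 CPM in controls 1 and 2 and 157 to 179 CPM in the knockouts. Of these 6 markers, 2 were lower with an unadjusted p under 0.05 in edgeR and 0 higher. Among all 16218 genes, 1172 were lower and 909 higher at that threshold. Without control 3 the Pax9 log2 fold change was -0.51 (adjusted p = 0.275, edgeR). Neuron markers were also lower in the knockout, without overlap: 7 of them summed to between 3251 and 4113 CPM in controls and between 1478 and 2159 CPM in knockouts. Of these 7, 6 were lower and 0 higher at an unadjusted p under 0.05 in edgeR, beside the counts over all genes given above. Their median log2 fold change was -0.89, and 0 passed after adjustment. The part of epithelium and of nerve in the Pax9 difference was not tested. All 6 Pax9 counts were fractional, as happens when shared reads are divided, and so were the Shox2 counts in 4 libraries. The Pax9 gene model overlaps Gm15524 by 1198 bases and Slc25a21 by 189, both on the opposite strand.

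**Figure D1:**
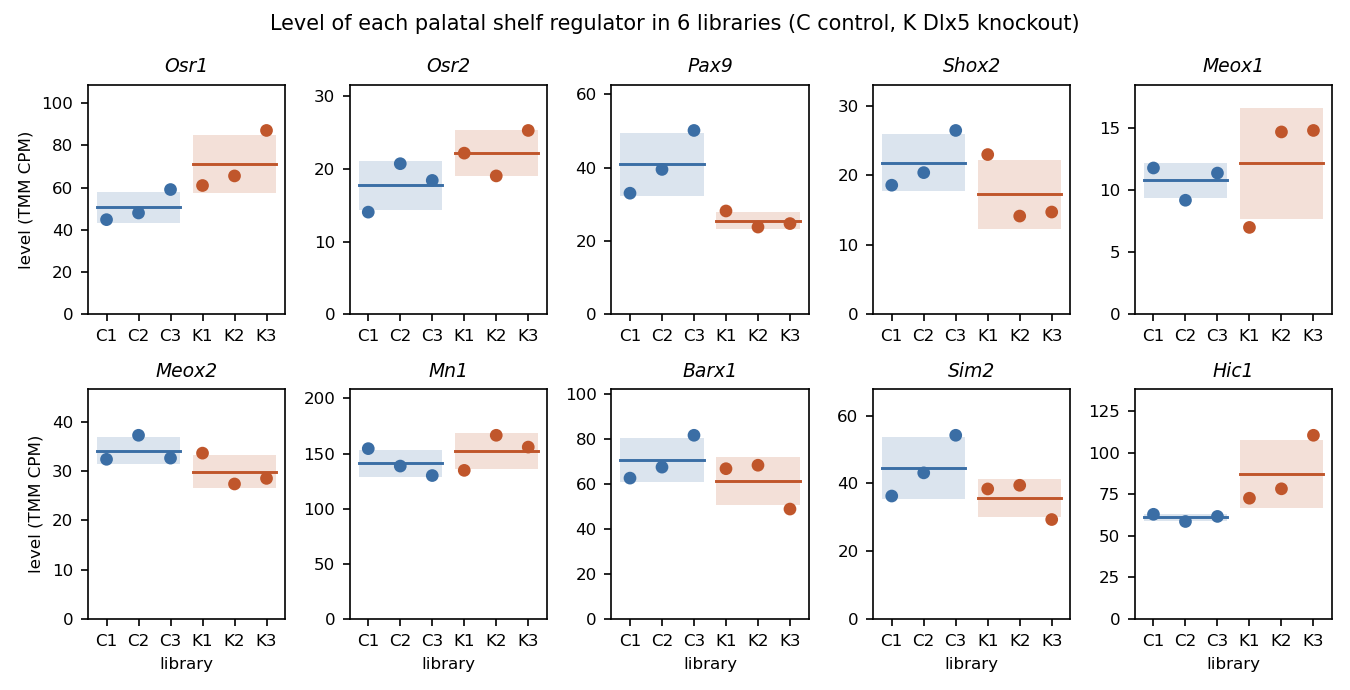
Level of each of the 10 genes in TMM-normalised CPM (vertical axes, each starting at 0) in the 6 libraries (horizontal axes; C control, K knockout). Points are libraries, lines are group means and shaded bands are 1 SD of 3 libraries. Pax9 is lower in all 3 knockouts than in any control, and Osr1 and Hic1 are higher, while the other 7 genes overlap between groups.

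Shox2, the homeobox gene of the front of the palate, was present in this posterior tissue and did not differ beyond its spread. It measured 18.6, 20.4 and 26.5 CPM in controls 1, 2 and 3, and 23.0, 14.1 and 14.7 CPM in knockouts 1, 2 and 3. Knockouts 2 and 3 lay below all controls, whereas knockout 1 lay above controls 1 and 2, so the groups overlapped. The ratio of knockout to control was 0.792 (95% confidence interval 0.561 to 1.12; adjusted p = 0.576, edgeR), which covers both a fall to 0.561 times and a small increase. The log2 fold change was -0.34, and it moved to -0.59 without knockout 1 and to -0.18 without control 3. On the opposite strand, Shox2 shares 382 bases with Rsrc1, as Osr1 shares 470 with 1700022H16Rik and Meox1 4970 with Gm11551, and the use of strand in counting is not given in the sources used here.

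The genes known from the back of the palate did not pass the test either, and their groups overlapped. Barx1, a homeobox gene also active in molar tooth and stomach mesenchyme, measured 62.7, 67.6 and 81.8 CPM in the control libraries and 66.9, 68.5 and 49.0 CPM in the knockouts 1, 2 and 3. Its low knockout value came from knockout 3, and without that library the log2 fold change went from -0.20 to -0.06 (adjusted p = 0.881, edgeR). Meox2 measured 32.4, 37.3 and 32.6 CPM in the control libraries and 33.6, 27.4 and 28.5 CPM in the knockouts. Knockouts 2 and 3 lay below every control and knockout 1 did not (ratio 0.873; 95% confidence interval 0.730 to 1.04; adjusted p = 0.520, edgeR), and the log2 fold change went from -0.20 to -0.12 without control 2. Mn1, a transcriptional cofactor, was the most counted member, at 154.5, 139 and 130.1 CPM in the control libraries and 135, 167 and 156 CPM in the knockouts. Its ratio of 1.08 had the narrowest interval of the 10 members on the log2 scale (0.915 to 1.28 as a ratio; adjusted p = 0.719, edgeR), and its log2 fold change of 0.11 was 0.03 without knockout 2, 0.05 without control 3, 0.18 without control 1 and 0.19 without knockout 1. On the same strand, Meox2 shares 38610 bases with Gm48617 and Mn1 2122 with Gm43119. These and the other overlaps given are of whole gene spans, introns included. Gm48617 is annotated as sense intronic, and the Meox2 and Mn1 counts were whole in all libraries.

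Ratios of these posterior genes to Shox2 within a library do not depend on library scaling. The Mn1 to Shox2 ratio of counts was 8.32, 6.81 and 4.92 in controls and 5.87, 11.8 and 10.6 in knockouts 1, 2 and 3. Knockouts 2 and 3 lay above every control, and knockout 1 lay among them (exact permutation test of the log2 ratios, two-sided, p = 0.3). The Barx1 to Shox2 ratio averaged 3.26 ± 0.151 in controls and 3.70 ± 1.02 in knockouts (exact permutation p = 0.8), and the Meox2 to Shox2 ratio 1.60 ± 0.322 and 1.78 ± 0.274 (p = 0.5, exact permutation; SD, n = 3 each). With 3 libraries a group no such p can go below 0.1, and 5 ratios were tested, with adjusted p of 0.75 or 0.8.

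Osr1 and Osr2, the odd-skipped zinc finger genes, both had higher estimates in the knockout. Osr1 (chromosome 12 from 9570116 to 9581500) measured 44.8, 48.0 and 59.1 CPM in the control libraries and 61.0, 65.5 and 87.1 CPM in the knockouts. Every knockout lay above every control, though control 3 and knockout 1 were close. The ratio was 1.41 (95% confidence interval 1.10 to 1.81; log2 fold change 0.50, SE 0.16; adjusted p = 0.220, edgeR). Osr2 (chromosome 15 from 35296098 to 35303305) measured 14.0, 20.7 and 18.4 CPM in the control libraries and 22.2, 19.0 and 25.3 CPM in the knockouts. Knockouts 1 and 3 lay above all controls and knockout 2 below control 2 (ratio 1.25; 95% confidence interval 0.950 to 1.65; adjusted p = 0.485, edgeR). Its log2 fold change of 0.32 was 0.18 without control 1 and 0.21 without knockout 3. The Osr2 to Osr1 ratio of counts was 0.352 ± 0.0688 in controls and 0.315 ± 0.0421 in knockouts (exact permutation p = 0.5, two-sided; SD, n = 3 each).

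Hic1, a zinc finger repressor found in mesenchyme, was the member with the largest positive estimate. It lies on chromosome 11 from 75164565 to 75169519. It measured 62.9, 58.6 and 61.7 CPM in controls, the least variable level of any member (coefficient of variation 3.65%). In knockouts 1, 2 and 3 it measured 72.6, 78.3 and 110.4 CPM. All knockouts lay above all controls, and knockout 3 was well above the other knockouts. The ratio was 1.43 (95% confidence interval 1.12 to 1.82; log2 fold change 0.52, SE 0.15; adjusted p = 0.195, edgeR). DESeq2 placed Hic1 past the threshold (adjusted p = 0.0474), as did edgeR without a filter (adjusted p = 0.0144). The fit without a filter also called Osr1 (edgeR adjusted p = 0.0218), and it called 0.817% of its 29870 genes higher.

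Knockout 3 was the highest library for both Osr1 and Hic1. Without it the log2 fold change of Osr1 went from 0.50 to 0.32 (adjusted p = 0.276, edgeR) and that of Hic1 from 0.52 to 0.30 (adjusted p = 0.158, edgeR), and both stayed above 0. Mesenchyme markers moved in part with these genes: of 6, 3 had an unadjusted p under 0.05 in edgeR, all higher in the knockout (Prrx1, Twist1 and Pdgfra). Their edgeR adjusted p were from 0.149 to 0.322. Among all 16218 genes, 909 were higher and 1172 lower at that unadjusted threshold. Twist1 overlapped between groups. So did Pdgfrb, Col1a2 and Col3a1, at log2 fold changes of 0.06, -0.21 and 0.05. Pdgfra, at 443 CPM, and Twist1, at 98.4 CPM, were highest in knockout 3, as Osr1 and Hic1 were, while Prrx1 was highest in knockout 2. The summed level of the 6, most of it from the collagens Col1a2 and Col3a1, was between 3716 and 4005 CPM in controls against 3303 to 4795 CPM in knockouts, with the lowest sum in knockout 3. The part of mesenchyme content and of the brain transcripts of knockout 3 in these differences was not tested.

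**Figure D2:**
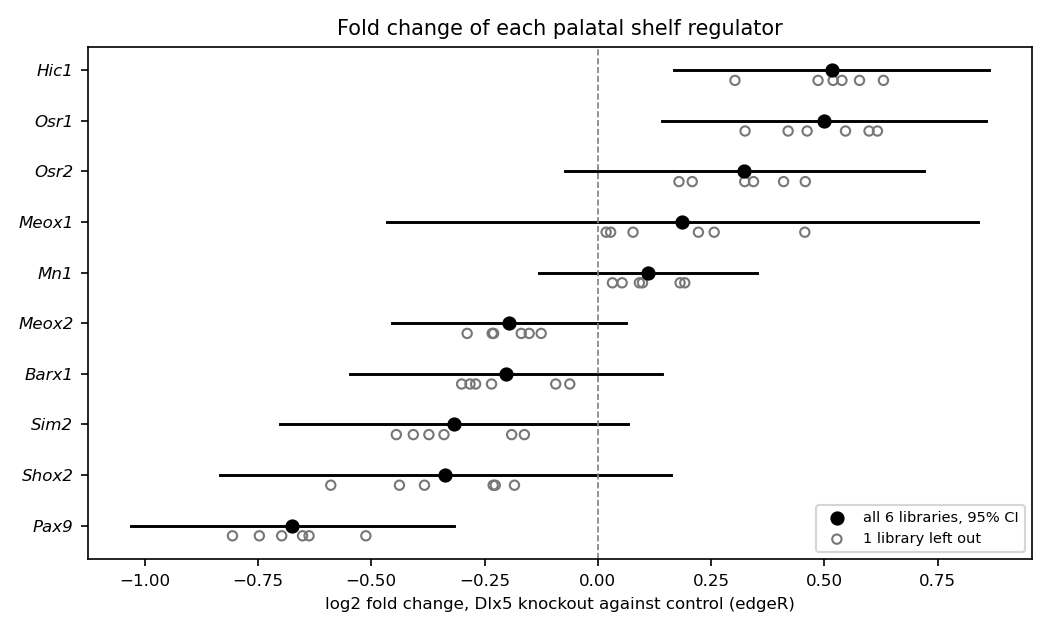
Log2 fold change of each gene, knockout against control (horizontal axis; edgeR), with genes on the vertical axis. Filled points with bars are all 6 libraries with the 95% confidence interval, and open points are the estimates with 1 library left out. The intervals of Hic1, Osr1 and Pax9 lie clear of 0 before adjustment over all genes, and no open point of any gene crosses 0.

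Meox1 and Sim2 did not differ beyond their spread. Meox1, the paralog of Meox2 and a homeobox gene of somite derivatives, measured 11.8, 9.17 and 11.4 CPM in the control libraries and 6.99, 14.7 and 14.8 CPM in the knockouts. Knockout 1 lay below every control and knockouts 2 and 3 above every control, which gave Meox1 the largest spread among knockouts of any member (coefficient of variation 36.8%) and the widest interval (ratio 1.14; 95% confidence interval 0.724 to 1.79; adjusted p = 0.847, edgeR). Its log2 fold change of 0.19 went to 0.02 without knockout 3, 0.03 without knockout 2, 0.08 without control 2 and 0.46 without knockout 1. Among the knockouts, skeletal muscle markers were likewise lowest in knockout 1, with summed levels of 980, 2882 and 1630 CPM in knockouts 1, 2 and 3 and 1162, 1613 and 900 CPM in controls 1, 2 and 3. Among the controls the order was the other way for control 2, which had the most muscle signal and the least Meox1. The part of muscle in the Meox1 values was not tested. The Meox2 to Meox1 ratio was 4.81 in knockout 1 and 1.87 and 1.93 in knockouts 2 and 3, either side of the controls at 2.75, 4.06 and 2.87 (exact permutation p = 0.6, two-sided).

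Sim2, a bHLH-PAS transcription factor, measured 36.3, 43.1 and 54.2 CPM in the control libraries and 38.4, 39.5 and 29.4 CPM in the knockouts. The groups overlapped through control 1, the lowest control (ratio 0.802; 95% confidence interval 0.615 to 1.05; adjusted p = 0.477, edgeR). Sim2, Barx1, Pax9 and Shox2 were all highest in control 3, and without that library their log2 fold changes were -0.16, -0.09, -0.51 and -0.18, each nearer to 0 than with all libraries. Sim2 and Barx1 were both lowest in knockout 3, and without it the Sim2 log2 fold change went from -0.32 to -0.19. Osteoblast markers, of which Bglap was at 0, summed to 651 CPM in control 3, to 190 and 286 CPM in the other controls and to 26.6 CPM in knockout 3, with 118 and 313 CPM in knockouts 1 and 2. Their part in these values was not tested.

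**Figure D3:**
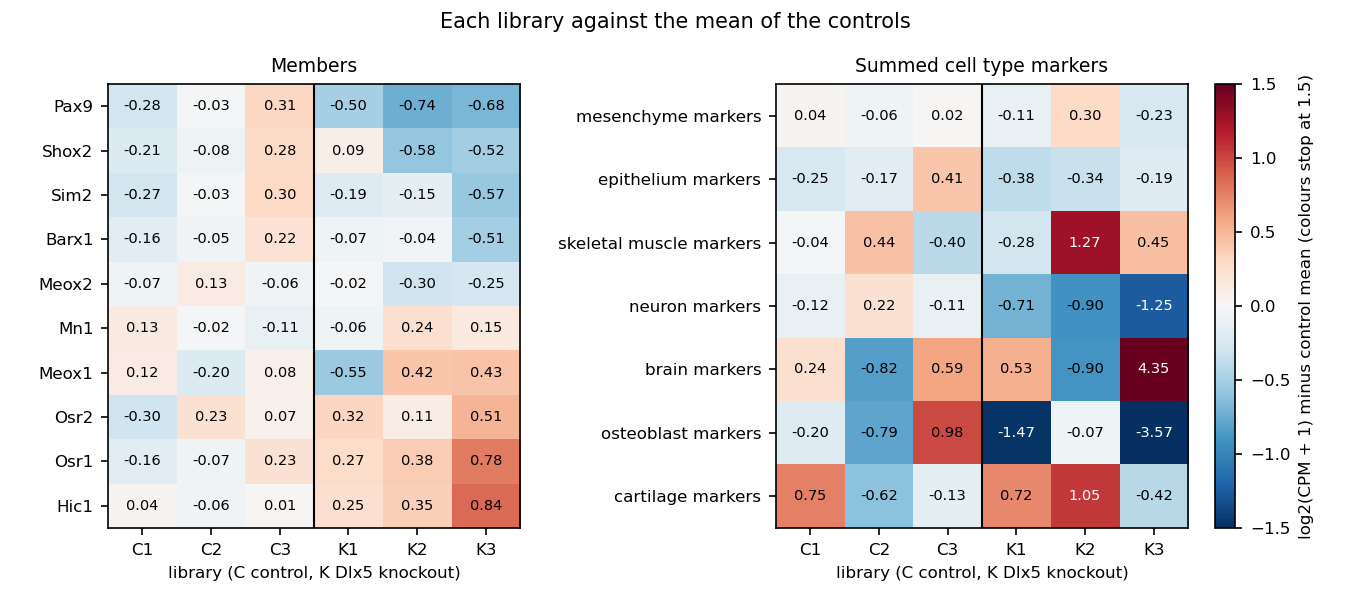
Each library against the mean of the 3 controls, as log2(CPM + 1), for the 10 genes (left) and for summed cell type markers (right). Columns are libraries (C control, K knockout), and colours stop at 1.5 in either direction. Pax9, Sim2, Barx1 and Meox2 are negative in all 3 knockouts and Osr1, Osr2 and Hic1 positive in all 3. Of these, only Pax9, Osr1 and Hic1 lie outside the range of the controls in all 3, and Meox2 is at -0.02 in K1. Neuron markers are negative in all 3 knockouts (-0.71, -0.90 and -1.25), and in K3 brain markers reach 4.35 and osteoblast markers -3.57.

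Compared per length of exon, a gene of the back of the palate had the highest level of the 10. In controls Barx1 was highest, at 50.6 ± 7.08 CPM per kb of exon (SD, n = 3), apart from the next gene, Osr1, at 24.5 ± 3.63 CPM per kb. The ranges of Osr1 and Mn1 (20.3 ± 1.78 CPM per kb) overlapped, and so did those of Hic1 (16.3 ± 0.591 CPM per kb) and Meox2 (14.45 ± 1.16 CPM per kb), while Mn1 lay clear of Hic1 and Meox2 clear of Sim2 (10.6 ± 2.14 CPM per kb). From Sim2 down, the ranges of neighbours overlapped: Pax9 at 8.09 ± 1.71, Shox2 at 6.58 ± 1.25, Osr2 at 4.89 ± 0.935 and Meox1 at 4.83 ± 0.626 CPM per kb. Among knockouts, Barx1 (43.9 ± 7.75 CPM per kb) and Osr1 (34.5 ± 6.74 CPM per kb) overlapped, and Pax9, at 5.06 ± 0.457 CPM per kb, was the last of the 10, though not apart from Shox2, Meox1 or Osr2 next to it in that order. Exon lengths came from GENCODE M21, and the authors' annotation, which may differ, is not given in the sources used here.

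**Figure D4:**
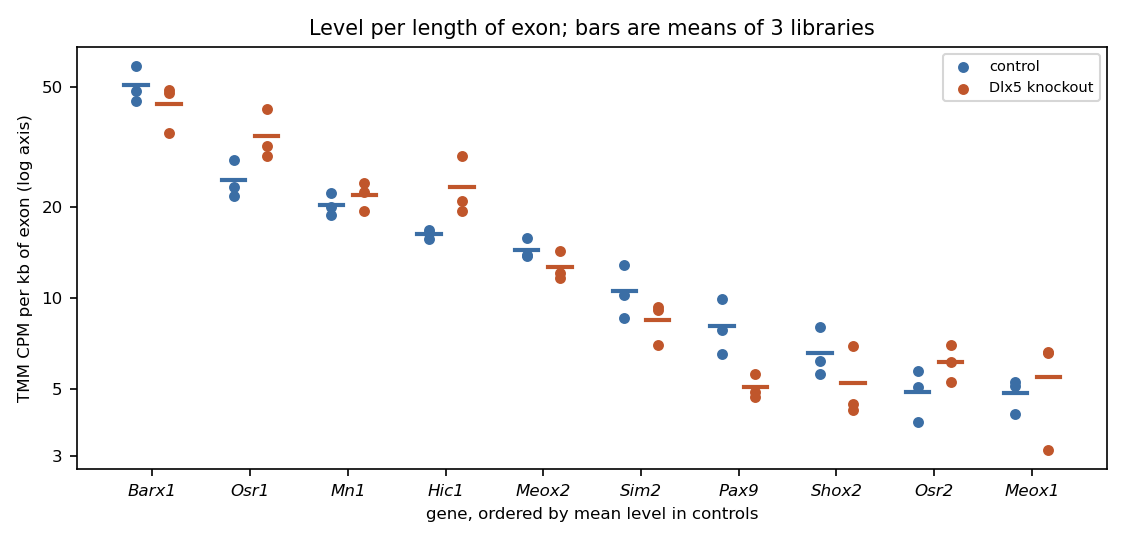
Level per kb of exon (vertical axis, TMM CPM per kb, log scale) for each gene, ordered by its control mean (horizontal axis). Points are libraries and bars are means of 3. Barx1 is highest in both groups, and Pax9 goes from the seventh place in controls to the last in knockouts, among genes whose ranges overlap.

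A list of 20 other genes of palate patterning had 13 estimates below 0 and 7 above, with a median log2 fold change of -0.27 beside 0.01 for all genes, and 0 passed the test (edgeR). That median was -0.10 without control 3 and -0.17 without knockout 2. At an unadjusted p under 0.05 there were 5 lower and 1 higher, beside 1172 lower and 909 higher of all 16218 genes (edgeR). DESeq2 called 3, all lower, among them Lhx8 and Tbx3. Lhx8, a LIM homeobox gene of palate and tooth mesenchyme, measured 7.77, 8.12 and 12.1 CPM in the control libraries and 4.38, 3.37 and 4.38 CPM in the knockouts, without overlap (ratio 0.438; 95% confidence interval 0.294 to 0.651; adjusted p = 0.0882, edgeR). Tbx3, a T-box repressor, measured 53.1, 76.6 and 73.5 CPM in the control libraries and 48.8, 42.9 and 38.5 CPM in the knockouts (ratio 0.640; adjusted p = 0.121, edgeR). Fgf10, a mesenchymal growth factor, had a ratio of 1.58 (95% confidence interval 1.17 to 2.15; adjusted p = 0.186, edgeR). The front gene Msx1 was at 18.1 ± 10.5 CPM in the control libraries and 10.7 ± 4.48 CPM in the knockouts, and the back gene Tbx22, which lies downstream of Mn1, at 2.49 ± 1.22 and 1.36 ± 1.23 CPM (SD, n = 3 each). These last 2 genes were chosen after their values were seen.

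Among 12 genes linked to the members' own pathways, 11 were tested, with 6 estimates above 0 and 5 below, a median log2 fold change of 0.06, and 0 calls by edgeR. The sign of that median was not stable: with 1 library left out it ran from -0.06 without control 2 to 0.16 without control 1, and was -0.0073 without knockout 2. At an unadjusted p under 0.05 there were 3 higher and 1 lower, beside 909 higher and 1172 lower of all 16218 genes (edgeR). DESeq2 called 1, Wnt5a. Wnt5a, a Wnt ligand of palate mesenchyme, measured 42.9, 32.2 and 38.4 CPM in the control libraries and 48.0, 51.0 and 81.1 CPM in the knockouts, highest in knockout 3 (ratio 1.60; 95% confidence interval 1.15 to 2.21; adjusted p = 0.211, edgeR). Its receptor Ror2 had a ratio of 1.22 (95% confidence interval 1.04 to 1.43; adjusted p = 0.276, edgeR), and Has2, which makes hyaluronan, 1.23 (95% confidence interval 1.02 to 1.49; adjusted p = 0.326, edgeR). Runx3, a Runt factor linked to Shox2 in skeletal tissue, measured 14.6, 15.5 and 14.9 CPM in the control libraries and 10.2, 12.1 and 7.70 CPM in the knockouts, without overlap (ratio 0.662; adjusted p = 0.227, edgeR). Of genes tied to Osr2 and Pax9, Sema3a had 91.6 ± 5.51 CPM in the control libraries and 89.7 ± 1.70 CPM in the knockouts, and Dkk2 97.8 ± 4.48 and 81.3 ± 17.6 CPM (SD, n = 3 each; both chosen after their values were seen).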

How the data were processed

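RNA of the soft palate was sequenced in 3 control and 3 Dlx5-/- libraries made with a poly(A) TruSeq kit, per the labels' protocols. Per the submitters' processing notes, STAR 2.4.1d and Partek were used with build mm10. Annotation, counting and strand settings: not given in the sources used here. The deposited table holds estimated counts, of which 64.5% of values above 0.5 are whole within 0.001, with column totals that differ although the file calls itself normalized. Another 1 column, which fits no labelled sample, was left out.

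Counts were rounded, genes with a mean of at least 1 CPM kept (16218), and groups compared with edgeR 4.0.16 (R 4.3.3; quasi-likelihood, TMM, no block, Benjamini-Hochberg at 0.05). SE came from the F statistic. The code was tested on simulated data. Alternatives were DESeq2 1.42.0, limma-trend 3.58.1 on log2(CPM + 1), other factors, filters and thresholds, a replicate block and each library left out. Library totals and removal of the 6 most counted rows were added after seeing the data. Coordinates and exon lengths are from GENCODE M21 (GRCm38, also called mm10), promoters from RefSeq on GRCm38.p6. Members and lists were chosen with earlier results of these data known. Named were all members, Dlx5, up to 4 genes with the smallest p from each list, and for Osr2, Pax9 and Shox2 the 3 most alike genes averaging at least 5 CPM, predicted genes left out. Not every gene so named is reported here. Figures used matplotlib 3.10.9.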

Additional observations from a re-analysis of the deposited data

How the results depend on the processing

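All 10 members kept the sign of their log2 fold change in each of the 14 alternatives run for them (140 values). These alternatives reuse the same libraries, so the values are not independent, and Meox1 and Mn1 came as near 0 as 0.02 and 0.03. Of the 140 values, 5 passed the threshold: Pax9 and Hic1 with DESeq2 (2 members) and Pax9, Hic1 and Osr1 in edgeR without a filter (3 members). The cause was not tested. Among other palate patterning genes the calls were 3 with DESeq2, 4 without a filter (Lhx8 and Tbx3 among them) and 1 at a threshold of 0.1 (Lhx8), and among genes linked to the members 1 with DESeq2 and 1 without a filter (Wnt5a in both). Leaving out any 1 library called 0 members.

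The count over all genes moved more: from 1 to 506 with DESeq2, 97 with limma-trend, 679 without a filter, 74 with a filter of 5 CPM, 299 at a threshold of 0.1 and 41 with library totals. It ran from 0 (without control 3, knockout 1 or knockout 2) to 164 (without knockout 3) with 1 library left out. With the replicate block it was 0. Same-numbered libraries did not deviate together (correlations of -0.01, -0.01 and 0.02). So few libraries cannot settle whether the numbers pair samples, and the labels do not say. The block called 0 members. With 3 libraries a group, members with wide intervals, such as Meox1 and Shox2, could have changed within those intervals without being called.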

Other observations

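The genes whose levels ran most like those of the 3 leading members over the 6 libraries are given as a description, from 11584 candidates with a mean of at least 5 CPM. With Osr2 these were Nedd1, Trmt6 and Msantd2 (Pearson r = 0.994, 0.981 and 0.976 of log2(CPM + 1), n = 6 libraries). With Pax9 they were Fdps, Slc6a6 and Cdkl2 (r = 0.992, 0.986 and 0.985). With Shox2 they were Fundc2, Smim10l1 and Gstk1 (r = 0.991, 0.990 and 0.988). The points share libraries, depth and group, and the best of so many candidates over 6 points is high by selection.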
